A study of Mus musculus with 4 samples.

Results

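The S100 genes encode small calcium-binding proteins, and 10 of them (S100a1, S100a4, S100a6, S100a8, S100a9, S100a10, S100a11, S100a13, S100a14 and S100a16) are described here in sorted alveolar type 1 (AT1) cells of newborn mouse lung. They were found by their exact symbols in the 4 expression tables, and all 10 were present among 23990 genes. AT1 cells are the thin cells that line most of the gas-exchange surface. The 4 RNA-seq libraries came from littermates on a mixed B6 and 129 background at postnatal day 3 or 4, and every animal carried Scnn1a-Cre, a Cre recombinase expressed where the sodium channel gene Scnn1a is active. The 2 libraries labelled Sox2 have the genotype Scnn1a-Cre; Rosa[Sox2/+], a Cre-dependent Sox2 transgene. The 2 libraries labelled WT have the genotype Scnn1a-Cre; Rosa[mTmG/+], a Cre-dependent membrane reporter. By that genotype they would be Cre-carrying controls. The labels do not name the marker used for sorting and do not say whether a library is 1 animal, so p-values speak of the spread between these 4 libraries and of nothing wider.

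S100 proteins carry EF-hands, the loop that holds calcium, and most pair up and grip a target protein once calcium is bound. Inside cells these targets include annexins, cytoskeletal proteins and enzymes, and some S100 proteins are released and bind receptors such as RAGE, the product of the AT1 marker gene Ager. S100A8 and S100A9 are best known from neutrophils, where they form the antimicrobial complex calprotectin, whereas several others are abundant in epithelia.

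Sox2, an airway epithelial transcription factor and the gene that the labels name, stood at 1.41 and 1.99 FPKM in the libraries labelled Sox2, against 302 and 477 FPKM in those labelled WT. The Sox2 level thus goes against the labels. Whether the 2 groups were exchanged was not tested, and every direction below follows the labels as deposited. FPKM counts sequenced fragments per kilobase of transcript, scaled to the mapped fragments of each library. Summed over all 23990 genes, values came to 391074 and 292474 FPKM labelled Sox2, against 490446 and 721291 FPKM labelled WT. Small RNA genes (symbols beginning with Mir or Snor) held 54737 and 16835 FPKM labelled Sox2, against 94467 and 367471 FPKM labelled WT. Levels, sums and folds below are not rescaled for this. The median distance from a value to its deposited upper bound, as a percentage of the value and over genes of at least 1 FPKM, was 7.94% and 12.4% in the libraries labelled Sox2, against 7.81% and 9.91% in those labelled WT. AT1 markers were present in every library, but alveolar type 2 (AT2) markers summed to more than AT1 markers in each. The sum of 10 AT1 markers came to 6109 and 7072 FPKM labelled Sox2, against 1165 and 655 FPKM labelled WT. The sum of 10 AT2 markers was 25347 and 17614 FPKM labelled Sox2, against 6170 and 1048 FPKM labelled WT. Most of the AT2 sum in each library was 1 gene, Sftpc, so the order of the 2 sums rests largely on that gene. Sftpc stood at 21174.7 and 14800.5 FPKM labelled Sox2, against 5003.2 and 796.2 FPKM labelled WT. The sum of 12 squamous epithelial genes was 26.2 and 26.6 FPKM labelled Sox2, against 77.3 and 468 FPKM labelled WT. By the test described further on, 9 of 10 AT1 and 9 of 10 AT2 markers were higher (median log2 differences 3.63 and 3.17). Among 7 tested squamous genes 4 were lower (median -1.84). Of 7 tested airway markers, Sox2 among them, 1 was higher and 3 were lower (median -0.71). These counts stand beside 4.2% of all tested genes called higher and 8.11% called lower. For airway markers, the lower count was 2 under each of the 3 rescalings described further on. The higher airway count was 2 with a pseudocount of 0.1 and under the robust variance model. Leaving out labelled Sox2 replicate 1 left 1 higher AT2 marker, leaving out labelled Sox2 replicate 2 left 0 and the robust variance model left 2, whereas the AT1 count was at least 8 with any library left out. The squamous count was 2 without either library labelled Sox2 and 7 without labelled WT replicate 1. These marker levels moved with the labels, and their part in the S100 results was not tested. In bulk samples fewer cells of a type and less RNA per cell cannot be told apart.

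All 10 genes lie on chromosome 3, in 2 blocks within 3053612 bases, and coordinates are those of the authors' tables in build mm10, counted from 1. The first block holds 8 of them, from S100a1 (90511034 to 90514330, minus strand) over S100a13 (90514435 to 90524581), S100a14 (90526849 to 90528835), S100a16 (90541223 to 90543151), S100a4 (90603770 to 90606045), S100a6 (90612894 to 90614414) and S100a8 (90669071 to 90670034) to S100a9 (90692630 to 90695721, minus strand). The second block, 2824774 bases further on, holds S100a11 (93520496 to 93526288) and S100a10 (93555117 to 93564645). Except for S100a1 and S100a9 the genes are on the plus strand.

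Upstream sequences are shown for the pair S100a1 and S100a13, which share a start region, for S100a11 and S100a16, which differed between the labels, and for S100a8 and S100a9, whose levels varied together. RefSeq windows (build GRCm38.p6, the assembly of mm10) were found for 8 of the 10 genes, S100a10 and S100a14 being without one. Each stretch below is the part of the 250 bases before a RefSeq start that lies outside every GENCODE exon, written 5′ to 3′ on the gene's own strand, and the S100a1-S100a13 stretch, 42 of the 104 bases between the starts, is written on the plus strand. Capitals mark matches, on either strand, to the AP-1 motif TGANTCA, the SOX core CNTTGT, the TATA box TATAAA or the C/EBP motif TTNNGNAA.
S100a1-S100a13 (chr3:90514393-90514434, plus strand): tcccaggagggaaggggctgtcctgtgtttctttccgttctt
S100a11 (chr3:93520246-93520487, plus strand): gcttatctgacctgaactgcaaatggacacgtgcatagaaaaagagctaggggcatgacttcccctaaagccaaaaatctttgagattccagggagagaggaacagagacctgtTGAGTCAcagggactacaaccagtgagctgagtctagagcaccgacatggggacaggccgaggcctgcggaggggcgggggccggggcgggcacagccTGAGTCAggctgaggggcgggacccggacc
S100a16 (chr3:90540896-90541145, plus strand): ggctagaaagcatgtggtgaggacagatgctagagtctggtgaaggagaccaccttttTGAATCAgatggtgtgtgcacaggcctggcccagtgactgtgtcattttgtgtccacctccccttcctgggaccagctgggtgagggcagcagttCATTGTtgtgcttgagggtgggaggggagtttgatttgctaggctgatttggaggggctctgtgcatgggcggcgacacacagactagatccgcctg
S100a8 (chr3:90668821-90668977, plus strand): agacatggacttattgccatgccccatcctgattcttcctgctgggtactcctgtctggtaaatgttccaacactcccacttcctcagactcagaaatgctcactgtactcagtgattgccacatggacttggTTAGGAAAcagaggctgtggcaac
S100a9 (chr3:90695722-90695971, minus strand): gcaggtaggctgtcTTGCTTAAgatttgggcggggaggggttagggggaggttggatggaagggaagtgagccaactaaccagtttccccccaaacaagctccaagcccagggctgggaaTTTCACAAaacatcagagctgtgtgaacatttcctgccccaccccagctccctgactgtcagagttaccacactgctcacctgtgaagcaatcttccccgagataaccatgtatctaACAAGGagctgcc
The S100a11 window held 2 matches to the AP-1 motif and 3 to the GC box (GGGCGG, not in capitals), and the S100a16 window shown held 1 match each to the AP-1 motif, the SOX core and the GC box. Of all 32536 different RefSeq windows of the same length, 6.73% held the AP-1 motif, 36.2% the SOX core, 36.8% the C/EBP motif, 12.3% the TATA box and 33.0% the GC box. A second RefSeq start of S100a16, further upstream, had 2 matches to the SOX core in its window. The S100a9 window held 2 matches to the C/EBP motif, 1 to the SOX core and 1 to the GC box, and the whole S100a8 window held 1 match each to the C/EBP motif, the SOX core and the TATA box. The S100a4 window, not shown, held 1 TATA box. The windows of S100a1, S100a6 and S100a13 held none of the 5 motifs. No match overlapped a match of another motif in these windows, and a match is a description of letters, not a binding site.

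Across the family, S100a1, S100a10, S100a11 and S100a16 were lower and S100a14 was higher in the libraries labelled Sox2. S100a4, S100a6, S100a8, S100a9 and S100a13 did not pass the test, which was limma on log2(FPKM + 1) with Benjamini-Hochberg adjustment over 12040 genes of a mean of at least 1 FPKM and a threshold of 0.05. All 10 genes passed that filter. The count of 4 lower genes can be read against 8.11% of all tested genes called lower, and that of 1 higher gene against 4.2% called higher. The groups did not overlap in 7 of the 10 genes, 6 of them lower and 1 higher. Of all tested genes 58.1% did not overlap, 42.5% on the lower and 15.7% on the higher side. The median log2 difference was -0.95 over the 10 genes and -0.29 over all tested genes, so genes in general also had lower values. Rescaling the libraries moved the gene-wide median to between -0.05 and 0.00, and then only S100a1, S100a10 and S100a14 passed of the 10. The exact permutation test cannot give a p below 0.333 for 1 gene in 4 libraries and was not used.

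**Figure D1:**
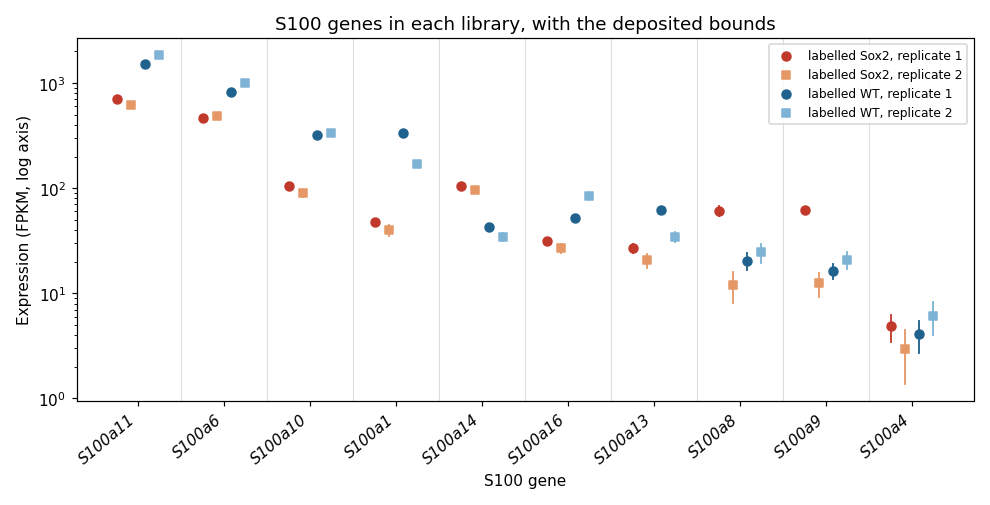
Expression of the 10 S100 genes in FPKM on a log axis, in order of their mean, with 1 point per library and a line from the deposited lower to the upper bound. S100a11 and S100a6 lead in every library, S100a14 is the one gene whose points labelled Sox2 all lie above those labelled WT, and S100a8 and S100a9 are highest in labelled Sox2 replicate 1.

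**Figure D2:**
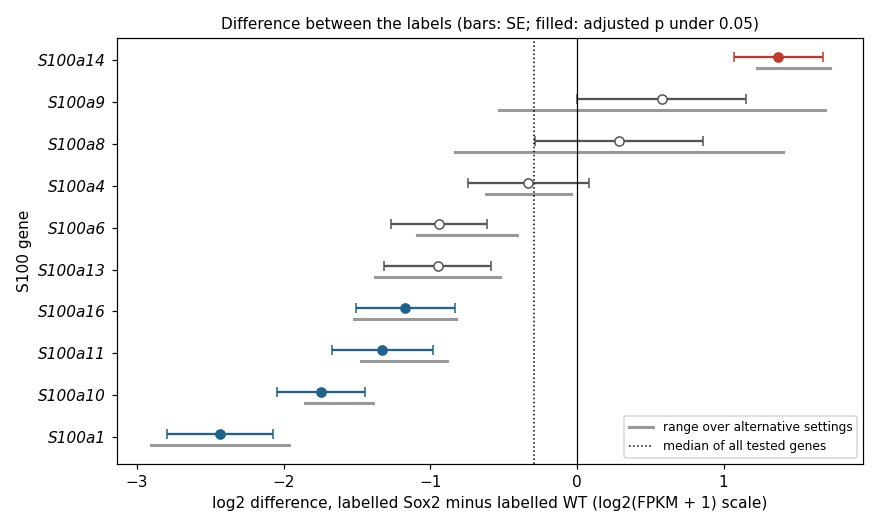
Log2 difference of each gene, labelled Sox2 minus labelled WT, with bars for the SE and filled points for an adjusted p under 0.05. Grey lines give the range over the 13 alternative settings (12 for S100a4), and the dotted line is the median of all tested genes at -0.29. The ranges of S100a8 and S100a9 cross 0.

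S100a1 had the largest difference of the 10 genes. Its protein is best known from heart and skeletal muscle, where it acts on calcium release and calcium pumping. S100a1 stood at 47.2 and 39.7 FPKM in the libraries labelled Sox2, against 331 and 171 FPKM in those labelled WT. Both libraries labelled WT were higher than both labelled Sox2, and the pair labelled WT was widely spread. The means were 43.5 ± 5.33 and 251 ± 113 FPKM (SD, n = 2 each), which is 5.79-fold lower in the libraries labelled Sox2, and the log2 difference was -2.43 (SE 0.36, limma adjusted p = 0.00248). Among the 5 called members, S100a1 was the one that passed with each of the 4 libraries left out in turn and under the 3 rescalings, with a fold between 3.95 and 7.63 when a library was left out.

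S100a13 begins 104 bases from S100a1 on the opposite strand, so the genes are transcribed away from each other. Its protein takes part in the release of the growth factor FGF1 from cells. S100a13 stood at 26.9 and 20.5 FPKM in the libraries labelled Sox2, against 62.6 and 34.3 FPKM in those labelled WT. These values did not overlap between the labels, but the log2 difference of -0.95 (SE 0.36) had a limma adjusted p of 0.110. Without labelled WT replicate 2 it passed (log2 difference -1.37, limma adjusted p = 0.0150). The ratio of S100a1 to S100a13 does not change when a library is multiplied by a single factor, though quantile normalization can change it. It was 1.75 and 1.93 in the libraries labelled Sox2, against 5.30 and 5.01 in those labelled WT. The gap between the labels was thus wider for S100a1 than for its neighbour. GENCODE places the start of S100a1 nearer to S100a13, and the annotation lists no overlap between them.

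S100a14 was the 1 member that was higher. It encodes an epithelial S100 protein. S100a14 stood at 105 and 96.8 FPKM in the libraries labelled Sox2, against 42.3 and 34.4 FPKM in those labelled WT. All values of one label lay above all of the other, with means of 101 ± 5.50 and 38.4 ± 5.58 FPKM (SD, n = 2 each), 2.62-fold higher in the libraries labelled Sox2. The log2 difference was 1.37 (SE 0.30, limma adjusted p = 0.0159), and it missed the threshold without labelled Sox2 replicate 1 (adjusted p = 0.0882) or replicate 2 (adjusted p = 0.114). AT1 and AT2 marker sums were higher in the same libraries.

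S100a16, the next gene on the same strand, begins 12387 bases after the end of S100a14 and differed in the opposite direction. Its product is expressed in many tissues. S100a16 stood at 31.2 and 26.8 FPKM in the libraries labelled Sox2, against 51.9 and 84.7 FPKM in those labelled WT. The values did not overlap and were 2.36-fold lower in the libraries labelled Sox2, with a log2 difference of -1.17 (SE 0.34) and a limma adjusted p of 0.0466. This call was close to the threshold and was lost under 9 of 13 alternatives, among them all 3 rescalings (adjusted p 0.122 to 0.188) and leaving out labelled Sox2 replicate 1 (0.119), labelled Sox2 replicate 2 (0.290) or labelled WT replicate 2 (0.204). The ratio of S100a14 to S100a16 was 3.35 and 3.62 in the libraries labelled Sox2, against 0.816 and 0.406 in those labelled WT, so the more abundant gene of this pair was S100a14 under one label and S100a16 under the other.

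**Figure D3:**
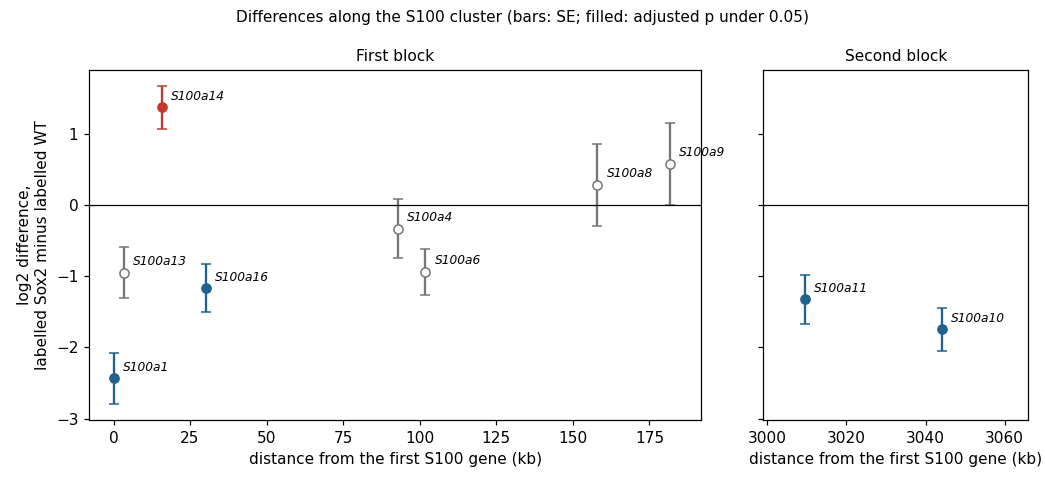
Log2 difference, labelled Sox2 minus labelled WT, of each S100 gene against its distance in kilobases from the first gene of the cluster, with bars for the SE and filled points for an adjusted p under 0.05. S100a14 at 1.37 lies between S100a13 at -0.95 and S100a16 at -1.17, while both genes of the second block are negative.

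S100a10 and S100a11 make up the second block, 28828 bases apart, and both were lower. S100A10 has lost the ability to bind calcium and instead forms a standing complex with annexin A2 at the plasma membrane, where it gathers plasminogen and its activators. S100a10 stood at 104 and 89.2 FPKM in the libraries labelled Sox2, against 318 and 332 FPKM in those labelled WT. Both pairs of libraries lay close together and far from each other, 3.37-fold lower in the libraries labelled Sox2, and the log2 difference was -1.74 (SE 0.30, limma adjusted p = 0.00531). The call was lost without labelled Sox2 replicate 2 (adjusted p = 0.0620).

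S100a11, whose protein binds annexin A1, was the most abundant member in every library. It stood at 709 and 618 FPKM in the libraries labelled Sox2, against 1502 and 1836 FPKM in those labelled WT. The means were 663 ± 64.2 and 1669 ± 236 FPKM (SD, n = 2 each), with no overlap, and the log2 difference was -1.33 (SE 0.34, limma adjusted p = 0.0304). It missed the threshold without each single library (adjusted p 0.0517 to 0.192) and under each rescaling (0.0567 to 0.108). Of its 50-base words in GENCODE transcripts, 41.1% also occur in 3 processed pseudogenes that the tables do not list, so its level is uncertain as far as reads were shared.

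S100a6 was the second most abundant member. S100A6, or calcyclin, is linked to proliferating cells and binds annexin A11 and the calcyclin-binding protein Cacybp. S100a6 stood at 462 and 484 FPKM in the libraries labelled Sox2, against 823 and 1007 FPKM in those labelled WT. The groups did not overlap, but the log2 difference of -0.94 (SE 0.33) did not pass (limma adjusted p = 0.0827), except under the robust variance model (adjusted p = 0.0384). S100a11 and S100a6 together gave 72.6% and 78.6% of the summed FPKM of the 10 genes in the libraries labelled Sox2, against 73.3% and 80.1% in those labelled WT. That sum came to 1612 and 1403 FPKM labelled Sox2, against 3173 and 3552 FPKM labelled WT, and the share of S100a14 in it was 6.48% and 6.90% labelled Sox2, against 1.33% and 0.969% labelled WT.

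S100a8 and S100a9 varied together from library to library, and neither differed between the labels by the test. S100a8 stood at 61.0 and 12.1 FPKM in the libraries labelled Sox2, against 20.3 and 24.6 FPKM in those labelled WT. S100a9 stood at 61.6 and 12.4 FPKM in the libraries labelled Sox2, against 16.3 and 20.7 FPKM in those labelled WT. In both genes labelled Sox2 replicate 1 was the highest library and labelled Sox2 replicate 2 the lowest, so the values labelled WT lay in between. The log2 differences were 0.29 (SE 0.57, limma adjusted p = 0.789) for S100a8 and 0.58 (SE 0.57, limma adjusted p = 0.549) for S100a9, and without labelled Sox2 replicate 1 they were -0.83 and -0.53. The ratio of S100a8 to S100a9 was 0.990 and 0.976 in the libraries labelled Sox2, against 1.25 and 1.19 in those labelled WT.

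Neutrophil markers were followed because these proteins are stored there. Of 15 markers 14 were listed and 5 were tested, and none passed (median log2 difference 0.38). The 14 listed genes summed to 58.0 and 11.8 FPKM in the libraries labelled Sox2, against 16.4 and 41.9 FPKM in those labelled WT. The protease inhibitor Stfa2 stood at 18.5 and 2.49 FPKM labelled Sox2, against 4.33 and 6.58 FPKM labelled WT, in the same order of libraries as S100a8. Ngp, a granule protein gene, stood at 16.4 and 3.39 FPKM labelled Sox2, against 4.16 and 5.76 FPKM labelled WT, again in that order. Camp was also highest in labelled Sox2 replicate 1 (7.38 FPKM), whereas Ltf was highest in labelled WT replicate 2 (22.0 FPKM). The granule enzymes Elane and Mpo, which mark the immature stages of the lineage, were listed at 0 in 3 of the 4 libraries and did not exceed 0.107 FPKM. Prtn3, another granule enzyme of the list, went the other way, at 0.229 and 0.0828 FPKM labelled Sox2, against 0 and 0 FPKM labelled WT. The part of these cells in the S100a8 and S100a9 values was not tested.

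**Figure D4:**
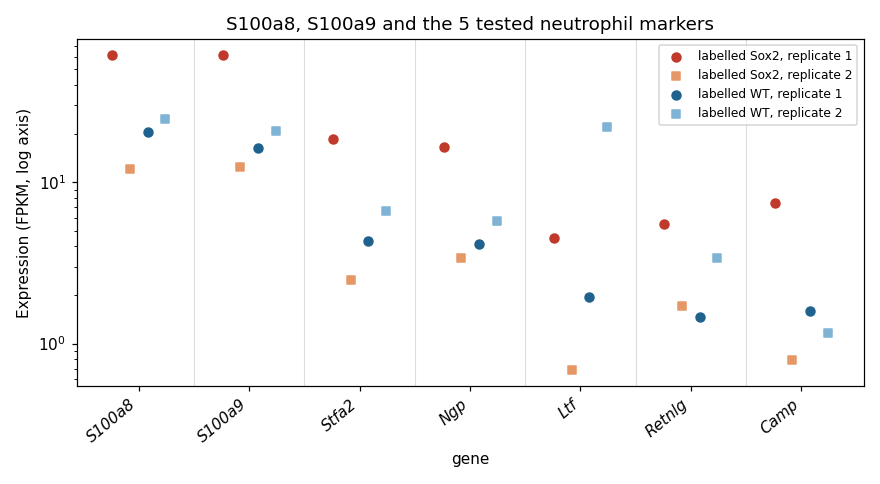
Expression of S100a8, S100a9 and the 5 tested neutrophil markers in FPKM on a log axis, with 1 point per library. Labelled Sox2 replicate 1 is the highest library for each gene but Ltf, where labelled WT replicate 2 is highest at 22.0 FPKM.

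S100a4 was the least abundant member. It is known from fibroblasts, white blood cells and invasive tumour cells, and its protein binds nonmuscle myosin. S100a4 stood at 4.85 and 2.93 FPKM in the libraries labelled Sox2, against 4.09 and 6.14 FPKM in those labelled WT. The groups overlapped, and the log2 difference of -0.33 (SE 0.41) did not pass (limma adjusted p = 0.642). The deposited bounds reached 28.5% to 53.5% of the value to each side, and whether a small difference could be detected was not tested. The sum of 11 fibroblast and smooth muscle markers was 441 and 153 FPKM labelled Sox2, against 507 and 74.3 FPKM labelled WT. None of 10 tested markers passed (median log2 difference 1.14). Vim, with a log2 difference of -0.60, stood at 131 and 44.9 FPKM labelled Sox2, against 365 and 37.3 FPKM labelled WT. It thus made up most of the sum in labelled WT replicate 1. Without labelled WT replicate 1, 6 of the fibroblast and smooth muscle markers were higher, and under the replicate block 7 were. The sum of 11 macrophage and monocyte markers was 63.4 and 37.3 FPKM labelled Sox2, against 25.9 and 11.3 FPKM labelled WT. Much of that gap was 1 gene, Csf1r, at 27.7 and 25.2 FPKM labelled Sox2, against 3.02 and 1.03 FPKM labelled WT. Csf1r was the 1 higher gene of the 8 tested (median 0.33), where 4.2% of all tested genes were called higher. Of the 50-base words of S100a4, 47.4% also occur in the overlapping GENCODE gene Gm42674 on the same strand, which the tables do not list.

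By level, S100a11 and S100a6 came first under both labels. In the libraries labelled Sox2 they were followed by S100a14 and S100a10, whose ranges overlapped, then S100a1. S100a9, S100a8, S100a16 and S100a13 came next, with the libraries of S100a8 and S100a9 so far apart that they spanned S100a1, S100a16 and S100a13, and S100a4 was last. In the libraries labelled WT the order after S100a6 was S100a10, S100a1, S100a16, S100a13, S100a14, S100a8, S100a9 and S100a4. There S100a10 and S100a1 overlapped, as did S100a16, S100a13 and S100a14 in turn, and S100a8 and S100a9. Within their libraries S100a11 lay at or above the 99.8th percentile of all listed genes, and S100a4 between the 62.0th and the 71.4th.

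The other S100 genes were barely present, with 1 exception. S100g, a calcium-binding protein of epithelia that move calcium, on chromosome X, stood at 88.1 and 65.7 FPKM in the libraries labelled Sox2, against 38.1 and 49.9 FPKM in those labelled WT. The values did not overlap and were 1.75-fold higher in the libraries labelled Sox2, but the log2 difference of 0.79 (SE 0.32) had a limma adjusted p of 0.128, and it passed under quantile normalization (adjusted p = 0.0438) and under rescaling to the sum without small RNA genes (adjusted p = 0.0445). S100a2, S100a3, S100a7a and S100b stayed under 1 FPKM in every library, and S100a5 and S100z were listed at 0 in all. Of the fused S100 genes of the skin barrier, which join an S100 domain to long repeats, 6 were listed and only Tchh reached the filter (1.03 and 1.22 FPKM labelled Sox2, against 1.17 and 1.75 FPKM labelled WT), with a log2 difference of -0.20 that did not pass (limma adjusted p = 0.776).

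Between the blocks of S100 genes lie the cornified envelope genes. Of 56 genes of other families inside the interval, 39 were listed at 0 in every library and 6 were tested. Of these 6, the small proline-rich genes Sprr2a1, Sprr2a2 and Sprr1a were lower in the libraries labelled Sox2, and none was higher. Among all tested genes 8.11% were called lower and 4.2% higher. Sprr2a2 stood at 0.0927 and 0.0576 FPKM labelled Sox2, against 15.9 and 200.5 FPKM labelled WT, and its near-identical copy Sprr2a1 at 0.0927 and 0.0576 FPKM labelled Sox2, against 15.3 and 194 FPKM labelled WT, so their reads may have been split. Both missed the threshold under the robust variance model (limma adjusted p = 0.195 for Sprr2a2 and 0.197 for Sprr2a1), and Sprr1a without labelled Sox2 replicate 1 (0.0738) or replicate 2 (0.205). The loricrin gene Lor (log2 difference -1.27, limma adjusted p = 0.165) and Sprr3 (-1.74, limma adjusted p = 0.0592) did not pass.

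Annexins, the calcium-dependent membrane-binding partners, split in direction. Of 12 annexin genes 9 were tested, of which 2 were lower, 1 was higher and 6 did not pass (median log2 difference -0.84). Over all tested genes 8.11% were called lower and 4.2% higher. The count of lower annexins was 5 under the replicate block, 5 without labelled WT replicate 2 and 0 without labelled Sox2 replicate 2. Anxa1, the partner of S100A11, stood at 215 and 157 FPKM in the libraries labelled Sox2, against 851 and 595 FPKM in those labelled WT (log2 difference -1.94, SE 0.34, limma adjusted p = 0.00560). Anxa7 stood at 20.1 and 17.9 FPKM labelled Sox2, against 56.8 and 63.2 FPKM labelled WT (log2 difference -1.61, limma adjusted p = 0.00850), and Anxa4 was higher, at 119 and 93.9 FPKM labelled Sox2, against 45.8 and 20.8 FPKM labelled WT (log2 difference 1.74, limma adjusted p = 0.0162). Leaving out labelled Sox2 replicate 2 ended the calls of Anxa1 (limma adjusted p = 0.0665) and Anxa7 (0.0962), and leaving out either library labelled Sox2 ended that of Anxa4 (0.0987 and 0.0918).

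Anxa2, the partner of S100A10, stood at 407 and 330 FPKM in the libraries labelled Sox2, against 1075 and 645 FPKM in those labelled WT. The groups did not overlap, and the log2 difference of -1.18 (SE 0.36) missed the threshold (limma adjusted p = 0.0548) but passed without labelled WT replicate 2 (0.0299), under the replicate block (0.0295) and under the robust variance model (0.0166). The ratio of S100a10 to Anxa2 was 0.255 and 0.270 in the libraries labelled Sox2, against 0.296 and 0.515 in those labelled WT. The ratio of S100a11 to Anxa1 was 3.29 and 3.92 labelled Sox2, against 1.77 and 3.09 labelled WT. Anxa11, bound by S100A6, stood at 31.1 and 29.1 FPKM labelled Sox2, against 46.4 and 64.1 FPKM labelled WT (log2 difference -0.84, limma adjusted p = 0.106, or 0.0412 under the replicate block), and the ratio of S100a6 to it overlapped between the labels, at 14.9 and 16.7 labelled Sox2, against 17.7 and 15.7 labelled WT.

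**Figure D5:**
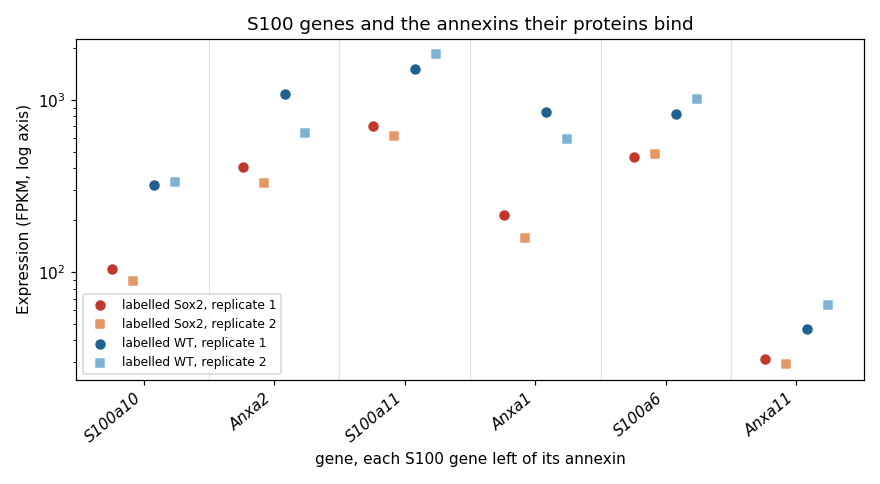
Expression in FPKM on a log axis of S100a10, S100a11 and S100a6, each left of the annexin its protein binds, with 1 point per library. In all 6 genes both points labelled Sox2 lie below both labelled WT, as in 42.5% of all tested genes. S100a6, Anxa2 and Anxa11 did not pass the test.

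Among 18 other binding partners 16 were tested, of which 2 were higher, 2 were lower and 12 did not pass (median log2 difference -0.13). The shares over all tested genes were 4.2% higher and 8.11% lower. Under the replicate block 4 partners were lower, where 2730 of all 12040 tested genes were. Fgf1, the growth factor released with the help of S100A13, stood at 53.3 and 48.4 FPKM in the libraries labelled Sox2, against 16.5 and 11.7 FPKM in those labelled WT (log2 difference 1.80, SE 0.33, limma adjusted p = 0.00672). It missed the threshold without either library labelled Sox2 (adjusted p 0.0587 and 0.0791). Trpv6, a calcium channel brought to the membrane by S100A10 and annexin A2, was higher at 6.44 and 5.46 FPKM labelled Sox2, against 0.936 and 0.799 FPKM labelled WT (log2 difference 1.89, limma adjusted p = 0.0111). Plat, the tissue plasminogen activator, was lower at 6.32 and 4.32 FPKM labelled Sox2, against 39.2 and 12.9 FPKM labelled WT (log2 difference -1.92, limma adjusted p = 0.0278), and the tumour suppressor Trp53 was lower too (log2 difference -1.65, limma adjusted p = 0.0259). Trpv6 missed the threshold without either library labelled Sox2 (adjusted p 0.0929 and 0.0951), Trp53 without labelled Sox2 replicate 2 (adjusted p = 0.270), and Plat without any of 3 libraries, namely labelled Sox2 replicate 1, labelled Sox2 replicate 2 and labelled WT replicate 1 (0.0792, 0.235 and 0.151). Plat also missed it under all 3 rescalings (limma adjusted p 0.0514 to 0.0653) and Trp53 under quantile normalization (0.0522) and equal sums (0.0517), which left 0 partners lower under the last 2 settings.

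All 7 genes for receptors of released S100 proteins were tested. Of these 3 were higher, 0 were lower and 4 missed the threshold (median log2 difference 0.90). Bsg, among the 4 (limma adjusted p = 0.0795), passed under the 3 rescalings (0.0203 to 0.0370), the replicate block (0.0438) and the robust variance model (0.0481). The variance model without trend left 2 higher receptors, and no filter left 0. Called higher among all tested genes were 4.2%, and called lower were 8.11%. Ager, which is also the leading AT1 marker, stood at 3260 and 3737 FPKM in the libraries labelled Sox2, against 496 and 157 FPKM in those labelled WT (log2 difference 3.64, SE 0.49, limma adjusted p = 0.00151). The scavenger receptor Cd36 stood at 64.0 and 37.4 FPKM labelled Sox2, against 19.5 and 5.40 FPKM labelled WT (log2 difference 2.13, limma adjusted p = 0.0217), and the adhesion molecule Alcam at 158 and 136 FPKM labelled Sox2, against 75.9 and 57.0 FPKM labelled WT (log2 difference 1.14, limma adjusted p = 0.0374). Cd36 and Alcam lost their calls without either library labelled Sox2 (Cd36 0.140 and 0.0871, Alcam 0.155 and 0.160), and Alcam also without labelled WT replicate 2 (0.127). Cd36 is made by endothelial cells as well, and the sum of 7 endothelial markers was 114 and 52.8 FPKM labelled Sox2, against 35.2 and 12.8 FPKM labelled WT, 2 of 7 being higher (median 1.39). That count was 0 without either library labelled Sox2, 1 without labelled WT replicate 2, and 7 without labelled WT replicate 1 or with the replicate block.

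Other EF-hand proteins, set beside the family because they share its calcium-binding loop, mostly did not pass, like most tested genes. Of 24 such genes 18 were tested, 1 was higher, 1 was lower and 16 did not pass, with a median log2 difference of -0.21. The same test called 12.3% of all tested genes, 4.2% higher and 8.11% lower. The lower gene was Pdcd6, at 22.6 and 22.4 FPKM labelled Sox2, against 49.9 and 63.4 FPKM labelled WT (log2 difference -1.28, limma adjusted p = 0.0242). The higher gene was Rcn3, a protein of the secretory pathway, at 27.1 and 13.4 FPKM labelled Sox2, against 7.83 and 0.991 FPKM labelled WT (log2 difference 2.26, limma adjusted p = 0.0378). Neither call held without labelled Sox2 replicate 1, labelled Sox2 replicate 2 or labelled WT replicate 2 (limma adjusted p 0.102, 0.169 and 0.0661 for Pdcd6 and 0.215, 0.125 and 0.0893 for Rcn3). Pdcd6 also missed the threshold under all 3 rescalings (limma adjusted p 0.0580 to 0.0974), and Rcn3 with equal sums (0.0542) and under the robust variance model (0.147).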

How the data were processed

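The deposited tables give, per the file headers, an FPKM value per gene and library with a lower and an upper bound, as the authors made them. The submitters' processing notes name Bowtie2, TopHat2, Cuffdiff and Cufflinks and the mouse build mm10. Which versions and gene annotation were used, and whether strand was used, is not given in the sources used here. The tables hold no read counts, so the bounds are the guide to precision. The 2 value columns of a further table, which the labels match to neither group, were left out.

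The 4 tables of 24490 entries were joined by symbol and position, entries of 267 repeated symbols were summed, and 1 gene marked as failed in 3 libraries was left out, giving 23990 genes. Groups and replicate numbers come from the sample titles. The 12040 genes that averaged 1 FPKM or more were tested on log2(FPKM + 1) with limma 3.58.1 in R 4.3.3 (lmFit, eBayes with trend, two-sided). Fold changes on this scale understate low genes. The script was tested on simulated data. Motifs were searched in RefSeq windows (GRCm38.p6), and exons and 50-base words were taken from GENCODE release M21 of the same assembly.

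The members and lists were chosen with earlier results of these data known. All 10 members are named. From each other list at most 4 genes past the threshold, or the 2 most abundant where none passed, are named, besides other S100, fused S100 and neighbouring genes. Anxa2, Anxa11, Camp, Ltf, Retnlg, Elane, Mpo, Prtn3, Sftpc and Bsg were chosen after their values were seen. Lists are described by counts and medians without a set test. The alternatives were another pseudocount (0.1), no filter (genes listed at 0 throughout left out), a filter at 5 FPKM, 3 rescalings, 2 other variance models, a replicate block, and leaving out each library in turn.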

Additional observations from a re-analysis of the deposited data

How the results depend on the processing

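Each difference of the 10 S100 genes kept its sign under the 13 alternatives (12 for S100a4, which a filter at a mean of 5 FPKM removes), except S100a8 and S100a9, which were -0.83 and -0.53 without labelled Sox2 replicate 1 and, at the other end, 1.41 and 1.69 without labelled Sox2 replicate 2. The count of lower S100 genes was 2 under median-of-ratios rescaling, 2 under quantile normalization and 2 with equal sums over genes other than small RNA genes, and with 1 library left out it was between 1 and 3; that of higher S100 genes was then 0 or 1. With no filter limma called 0 S100 genes lower and 0 higher, while 6 and 1 had an unadjusted p under 0.05; over all 18390 genes of that fit 0 were higher and 3 lower, against 1251 and 2618 at an unadjusted p under 0.05. Among all tested genes, 964, 980 and 805 were higher under these 3 rescalings in place of 506, or 58.4%, 54.2% and 54.5% of the calls in place of 34.1%. With 1 library left out, between 119 and 837 genes were higher and between 115 and 1312 lower in place of 976. A lone library was then assumed to vary like the others. The causes of these shifts were not tested.

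The replicate block gave 1142 higher and 2730 lower genes, and 1 and 5 S100 genes, the added one being S100a13 (limma adjusted p = 0.0268). The deviations of same-numbered libraries correlated at 0.234 across 12040 genes, but with 2 pairs and no label that ties them, the numbers are not taken to pair libraries. Of the other named genes, 4 neutrophil genes reversed without labelled Sox2 replicate 1: over the left-out libraries the log2 difference of Camp ran between -0.40 and 1.83, of Ngp between -0.43 and 1.56, of Retnlg between -0.29 and 0.98 (-0.07 without labelled WT replicate 1) and of Stfa2 between -0.86 and 1.62. That of Vim ran between -2.23 and 1.02 (0.16 without labelled Sox2 replicate 2). Read counts are not in the tables, so precision was judged from the bounds alone, which were widest for S100a4.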
